A study of Mus musculus with 8 samples.

Results

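The nuclear-encoded respiratory chain genes are 94 of the 47643 genes in a count table of mouse embryonic stem cells. They were chosen by name and not by level: protein-coding rows whose symbol starts with Ndufa, Ndufb, Ndufc, Ndufs, Ndufv, Uqcr, Cox4, Cox5, Cox6, Cox7, Cox8 or Atp5, or is Sdha, Sdhb, Sdhc, Sdhd or Cyc1. A further 11 rows with such symbols are pseudogenes and were left out. The 94 members comprise 36 subunits of complex I, 8 complex I assembly factors (Ndufaf1 to Ndufaf8), 4 subunits of complex II, 9 of complex III and 11 of complex IV. They also include 9 tissue isoforms or paralogs of complex IV subunits, 16 subunits of complex V and Atp5s, known as coupling factor B. Ndufa4 was placed in complex IV, where its product is now known to reside. Of these members, 90 had enough reads to be tested. The 4 that were not tested, Cox4i2, Cox7b2, Cox8b and Cox8c, are isoforms known from lung, muscle or testis.

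The respiratory chain sits in the inner mitochondrial membrane. Complexes I and II pass electrons from NADH and succinate to ubiquinone, complex III passes them on to cytochrome c, and complex IV passes them to oxygen. Complexes I, III and IV pump protons as they do so, and complex V, the ATP synthase, uses the resulting gradient to make ATP. Every complex but complex II is built from products of both genomes, so nuclear-encoded subunits have to be matched with subunits made inside the mitochondrion. Mouse embryonic stem cells held in 2i, the naive state, are known to respire as well as to use glycolysis.

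Polyadenylated RNA was sequenced from E14 cells, a line of 129/Ola background, in 4 genotypes with 2 libraries each: Dgcr8_KO, Drosha_KO, Ago1_2_KO and WT. The nuclease Drosha and its RNA-binding partner Dgcr8 make up the Microprocessor, which releases microRNA hairpins from long nuclear transcripts, and Ago1 and Ago2 are Argonaute proteins that carry mature microRNAs. All 4 genotypes were grown for at least 2 weeks in N2B27 medium with LIF and the inhibitors CHIR99021 and PD0325901. The labels do not say whether a knockout line is a single clone or whether its libraries were separate cultures. The p-values thus reflect the spread among these libraries only, and that spread may be technical. Total counts ranged between 13229771 and 26333907 per library. The comparisons ask whether loss of the Microprocessor or of Argonautes goes with a different level of these mRNAs, and whether the knockouts differ among themselves.

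Drosha mRNA fell to 51.2 and 82.4 CPM, counts scaled to library size, in Drosha KO cells, against 278 and 266 CPM in WT cells (log2 fold change -2.02, edgeR adjusted p = 0.00196). In the libraries labelled Dgcr8 KO, Dgcr8 mRNA was higher, with 392 and 370 CPM against 78.1 and 70.5 CPM in WT. Dgcr8 mRNA was also higher in Drosha KO, at 304 and 234 CPM (log2 fold change 1.86, edgeR adjusted p = 0.00132). In Ago1_2 KO it had 91.2 and 82.9 CPM and was not called. Neither Ago1 (adjusted p = 0.301) nor Ago2 (adjusted p = 0.132) mRNA was called in the libraries labelled Ago1_2 KO, so mRNA levels do not check those labels. All 12 embryonic stem cell markers were detected. Their summed level was 6952 to 7378 CPM in Dgcr8 KO and 8385 to 9955 CPM in Drosha KO. It was 8649 to 8694 CPM in Ago1_2 KO, against 8744 to 10199 CPM in WT. Markers of cells resembling the two-cell embryo moved with genotype: their summed level was 17.0 to 19.6 CPM in Dgcr8 KO, 74.4 to 110 CPM in Drosha KO and 340 to 765 CPM in Ago1_2 KO, against 3.14 to 5.53 CPM in WT. Other marker sums were far lower than those of stem cells but also differed. Neural markers, 2 of 7 at 0 in every library, summed to 16.2 to 18.04 CPM in Dgcr8 KO, 38.3 to 57.4 CPM in Drosha KO and 78.1 to 85.3 CPM in Ago1_2 KO, against 32.1 to 36.3 CPM in WT. Mesoderm markers summed to 63.3 to 79.0 CPM in Dgcr8 KO, 6.71 to 8.85 CPM in Drosha KO and 19.0 to 20.3 CPM in Ago1_2 KO, against 31.4 to 44.7 CPM in WT. Trophoblast markers summed to 40.6 to 42.2 CPM in Dgcr8 KO, 79.1 to 112 CPM in Drosha KO and 91.2 to 111 CPM in Ago1_2 KO, against 81.0 to 84.9 CPM in WT. Primitive endoderm markers summed to 5.78 to 5.86 CPM in Dgcr8 KO and 6.92 to 10.7 CPM in Drosha KO. In Ago1_2 KO they summed to 9.55 to 9.58 CPM, against 4.63 to 4.89 CPM in WT. Feeder fibroblast markers summed to 7.05 to 7.49 CPM in Dgcr8 KO and 9.76 to 14.9 CPM in Drosha KO. In Ago1_2 KO these reached 11.9 to 16.7 CPM, against 11.9 to 14.3 CPM in WT. The part of such cells in the results was not tested.

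The second WT library stood apart in these genes. Members took 1.05% and 1.08% of all counts in the Dgcr8 KO libraries, 1.15% and 1.24% of those in Drosha KO, and 1.10% and 1.10% of those in Ago1_2 KO, against 1.22% in WT 1 and 1.79% in WT 2. WT 2 had the highest level of any library for 85 of the 90 tested members, and 86 members were higher in WT 2 than in WT 1. The median difference between these WT libraries was 0.77 on the log2 scale, whereas the median difference between replicate 2 and replicate 1 was 0.07 in Dgcr8 KO, 0.16 in Drosha KO and 0.08 in Ago1_2 KO. Most members have short transcripts, with a median length of 870 bases against 2547 bases over all genes tested. The 2596 tested genes with transcripts under 1000 bases also had more reads in WT 2, by a median of 0.46 on the log2 scale, and all genes by 0.03. In WT 2 a gene's deviation from its mean fell with transcript length (Spearman's rho -0.47 across genes, which are not independent replicates), against -0.08 to 0.33 in the other libraries. The main results against WT are therefore given with and without WT 2, and the part of transcript length in them was not tested beyond a fit with a length offset.

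**Figure D1:**
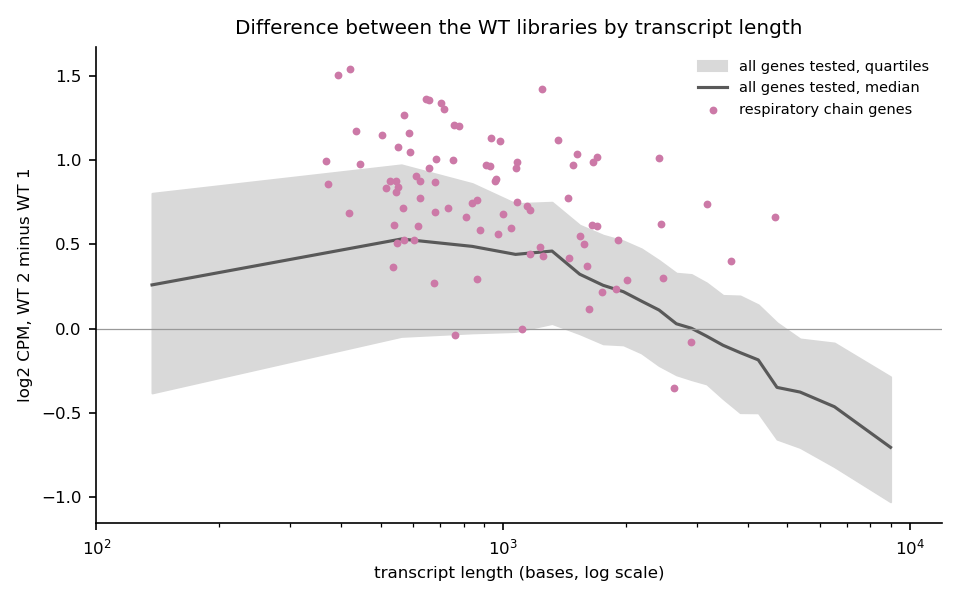
Difference in log2 CPM between WT 2 and WT 1 (y axis) against transcript length in bases (x axis, log scale). Points are the 90 tested respiratory chain genes, the line is the median and the band the quartiles of all tested genes in 20 length classes; 86 of the 90 points lie above 0 and most lie above the line.

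**Figure D2:**
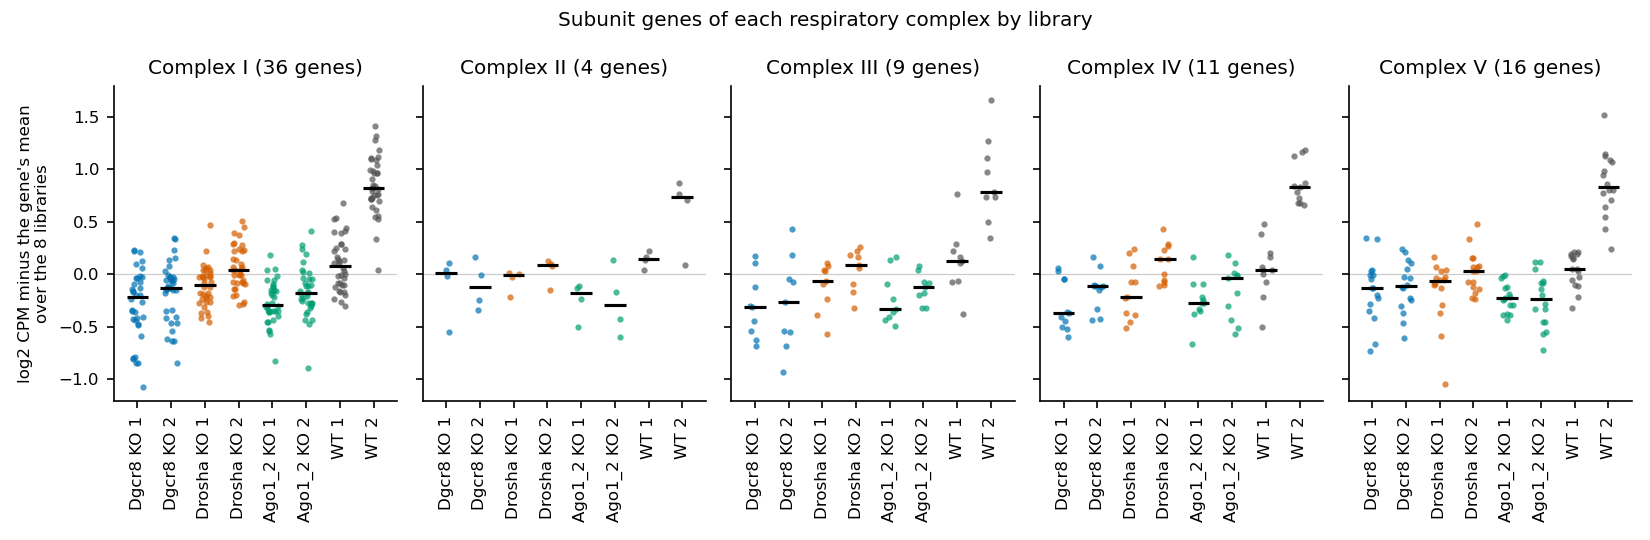
Deviation of each subunit gene's log2 CPM from its mean over the 8 libraries (y axis) in each library (x axis), by complex; bars are medians. The KO libraries and WT 1 lie near each other in every complex, with WT 1 medians between 0.04 and 0.15, and WT 2 lies at medians between 0.74 and 0.83.

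Promoters of the members often held sites of factors known for this gene group. Promoter sequences of 76 members were in the RefSeq table (GRCm38.p6), which holds 250 bases before and 50 after each gene's start. The core of the NRF1 site, GCNTGCGC on either strand, was present in 25 of 76 members (32.9%), compared with 10.1% of all 27025 promoters. The full palindrome of that site, which includes the core on both strands, was present in 7 members (9.2%) and in 1.0% of all promoters. An ETS/GABP site, CCGGAAG, stood in 17 members (22.4%) and in 9.1% of all promoters. The YY1 site, a motif of 10 letters, stood in 5 members (6.6%) and in 0.9%. NRF1 and GABP (also called NRF2) are textbook activators of respiratory chain genes. A match of letters is a description and does not show binding. Members that fell in Ago1_2 KO did not all hold one. Cox7b, Ndufb3, Ndufa7, Ndufa10, Ndufv2 and Cox7a2 had none of these sites, and no promoter sequence was at hand for Uqcrq. Whether the sites go with a fall was not tested. The stretches below, all of which hold a match, belong to 4 members that fell in Ago1_2 KO and to Atp5s, which differed most between the Microprocessor knockouts. Each ends at the base before the gene's start, is read 5′ to 3′ along the gene's strand, and carries its NRF1 or ETS/GABP matches in capitals. They lie at chr4:24897953-24898082 (plus strand) for Ndufaf4, chr9:50603850-50603949 (minus) for Sdhd, chr4:116075071-116075130 (minus) for Uqcrh, chr5:108434400-108434469 (minus) for Atp5k and chr12:69724785-69724944 (plus) for Atp5s.
Ndufaf4: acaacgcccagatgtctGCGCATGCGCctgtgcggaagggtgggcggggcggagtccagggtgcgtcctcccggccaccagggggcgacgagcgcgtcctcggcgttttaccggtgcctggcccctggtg
Sdhd: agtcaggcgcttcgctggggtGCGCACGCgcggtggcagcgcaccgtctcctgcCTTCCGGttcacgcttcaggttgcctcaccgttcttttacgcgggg
Uqcrh: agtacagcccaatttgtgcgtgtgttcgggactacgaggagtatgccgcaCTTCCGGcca
Atp5k: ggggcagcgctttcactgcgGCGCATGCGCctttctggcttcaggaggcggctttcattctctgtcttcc
Atp5s: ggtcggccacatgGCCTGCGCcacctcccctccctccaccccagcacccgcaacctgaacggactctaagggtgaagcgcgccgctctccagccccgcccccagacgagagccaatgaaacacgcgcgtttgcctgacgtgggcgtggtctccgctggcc
The full NRF1 palindrome begins 113 bases before the start in Ndufaf4 and 50 bases before it in Atp5k. Sdhd has an NRF1 core at 79 bases and an ETS/GABP site at 46 bases, Uqcrh an ETS/GABP site at 10 bases, and Atp5s an NRF1 core at 147 bases before the start.

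With all 8 libraries, respiratory chain mRNAs were lower in each knockout than in WT. The median log2 fold change of the 90 members was -0.70 in Dgcr8 KO, -0.53 in Drosha KO and -0.74 in Ago1_2 KO, that is, 61.7%, 69.1% and 59.7% of the WT level. Over all genes tested the medians were -0.03, -0.02 and -0.02, and over genes with transcripts under 1000 bases -0.35, -0.37 and -0.57. All 3 comparisons share the WT libraries. In Dgcr8 KO 14 members fell and 0 rose (4.48% and 2.45% of all genes tested), in Drosha KO 9 fell and 0 rose (4.83% and 6.54%), and in Ago1_2 KO 28 fell and 0 rose (7.38% and 10.2%). DESeq2 called 29, 17 and 43 members lower (8.24%, 6.75% and 9.21% of all genes). The share called lower was 15.6% of the members in Dgcr8 KO, 10% in Drosha KO and 31.1% in Ago1_2 KO, compared with 4.51%, 5.97% and 10.4% of genes with transcripts under 1000 bases.

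Much of this rested on WT 2. Without it the members' medians were -0.26, -0.11 and -0.31 in Dgcr8 KO, Drosha KO and Ago1_2 KO, and 3, 2 and 4 of 91 members were called, none of them higher. These are 3.3%, 2.2% and 4.4% of the members, near the 2.19%, 3.01% and 3.57% of all genes called lower in that fit, in which 0.871%, 3.98% and 6.35% of all genes were higher. Short-transcript genes then had medians of -0.02, -0.04 and -0.22, and all genes 0.03, 0.05 and 0.02. Without WT 1 instead, 69, 63 and 72 members were called lower (12.5%, 10.2% and 12.7% of all genes) and the medians were -1.02, -0.84 and -1.01. A fit with an offset for transcript length kept all 8 libraries and gave medians of -0.31, -0.19 and -0.30, with 14, 8 and 13 members called, of which 13, 7 and 11 were also called without the offset. All of these were lower, and they are 15.6%, 8.89% and 14.4% of the members, compared with 5.97%, 5.92% and 8.02% of all genes called lower in the same fit. Fold changes were below 0 for 77, 73 and 76 of 90 members in that fit.

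Both libraries of the knockout lay below both WT libraries for 65 members in Dgcr8 KO (31.2% of all genes), for 47 in Drosha KO (26.1%) and for 64 in Ago1_2 KO (31.9%). No member lay above both WT libraries in any knockout. WT 2 was the highest of all libraries for 85 of 90 members, which nearly fixed that count in advance. All 6 KO libraries lay below both WT libraries for 36 of 90 members, or 40% (10.7% of all genes, and 17.1% of genes with short transcripts). For 38 members all 6 KO libraries lay below WT 1, and for 87 members they lay below WT 2, so this count is set by WT 1, the library close to the knockouts.

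**Figure D3:**
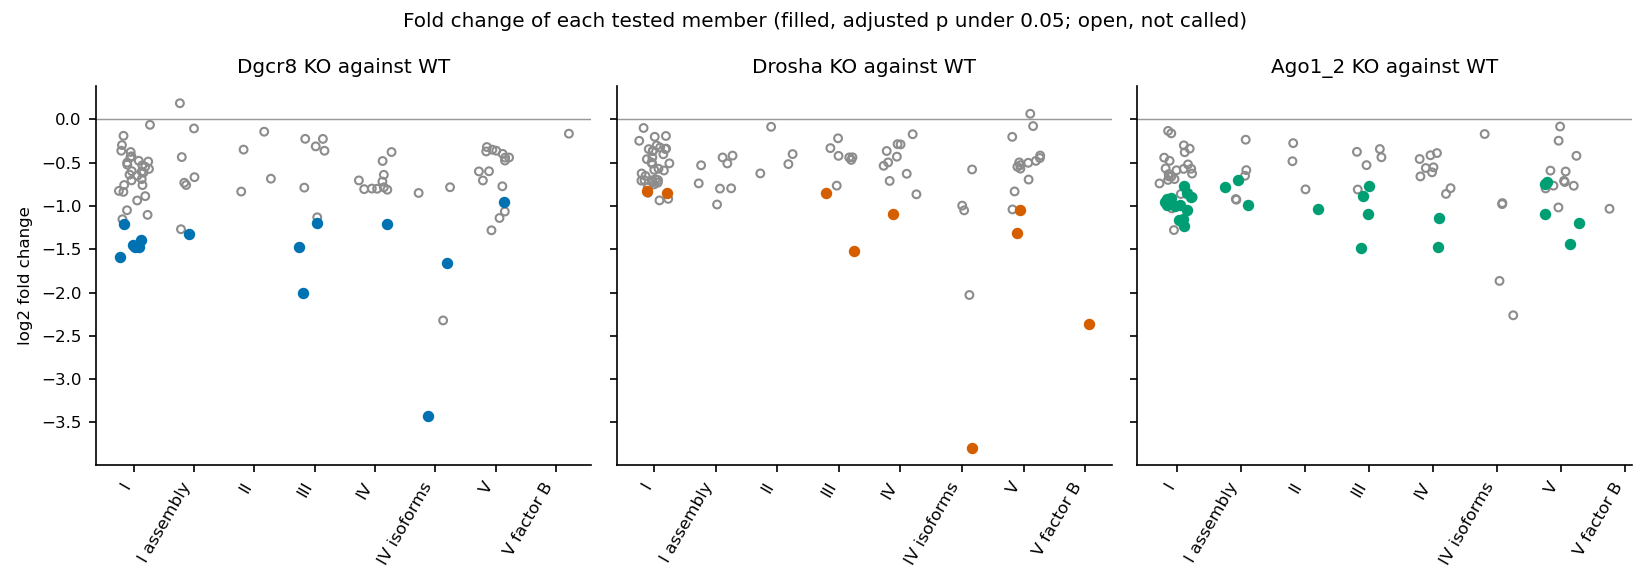
Log2 fold change of every tested member (y axis) against WT in Dgcr8 KO, Drosha KO and Ago1_2 KO, in columns by complex. Filled points were called at an adjusted p under 0.05; all 14, 9 and 28 of them lie below 0.

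The medians of all 5 complexes were below 0 in every knockout. The median log2 fold change of the 36 complex I subunits was -0.65 in Dgcr8 KO, -0.58 in Drosha KO and -0.72 in Ago1_2 KO. For complex II it was -0.52, -0.46 and -0.65, for complex III -0.79, -0.44 and -0.77, for complex IV -0.79, -0.50 and -0.61, and for complex V -0.54, -0.52 and -0.74. Summed over its subunits, complex I had 2059 and 2185 CPM in Dgcr8 KO, 2298 and 2583 CPM in Drosha KO and 2107 and 2240 CPM in Ago1_2 KO, against 2690 CPM in WT 1 and 4314 CPM in WT 2. Complex II had 611 and 613 CPM in Dgcr8 KO, 614 and 666 CPM in Drosha KO and 549 and 544 CPM in Ago1_2 KO, against 706 and 885 CPM in WT. In both of these every KO library lay below WT 1.
Complex III had 978 and 1052 CPM in Dgcr8 KO, 1107 and 1224 CPM in Drosha KO and 1030 and 1063 CPM in Ago1_2 KO, against 1252 and 2014 CPM in WT. Complex IV had 1541 and 1685 CPM in Dgcr8 KO, 1760 and 2058 CPM in Drosha KO and 1618 and 1739 CPM in Ago1_2 KO, against 1939 and 3415 CPM in WT. Here Drosha KO 2 exceeded WT 1. Complex V had 4730 and 4815 CPM in Dgcr8 KO, 5443 and 5818 CPM in Drosha KO and 4981 and 4973 CPM in Ago1_2 KO, against 5294 and 8029 CPM in WT, and both Drosha KO libraries exceeded WT 1. Against WT 1 alone, the mean of complex V was 90.1% in Dgcr8 KO, 106% in Drosha KO and 94.0% in Ago1_2 KO, whereas that of complex I was 78.9%, 90.7% and 80.8%.

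**Figure D4:**
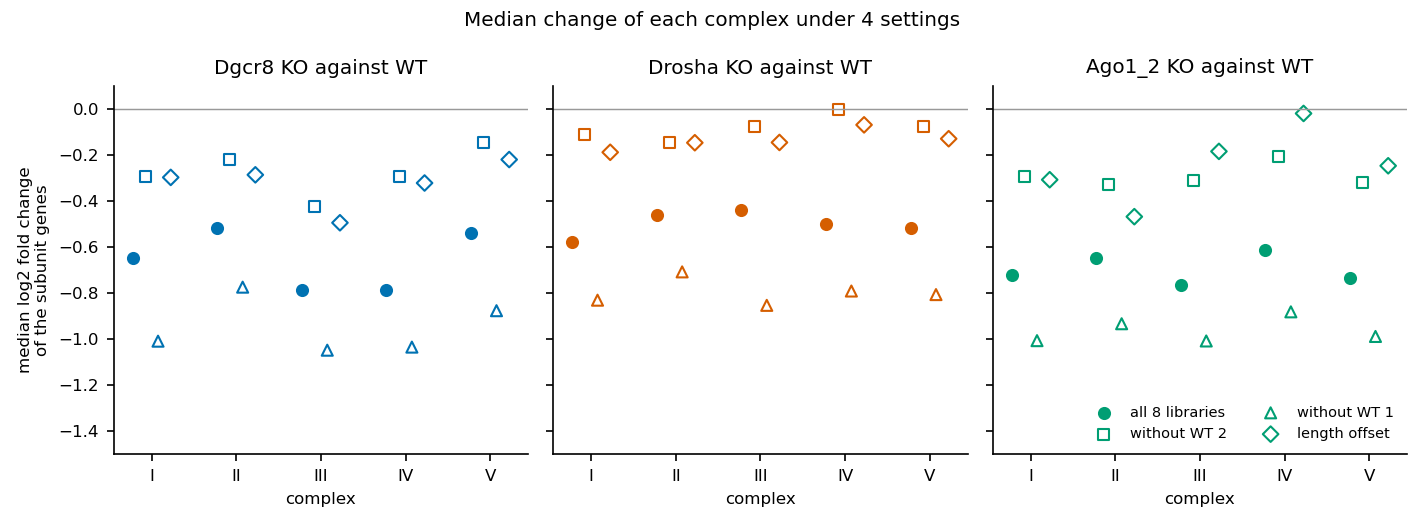
Median log2 fold change against WT (y axis) of the subunit genes of complexes I to V (x axis) in each knockout. Filled circles use all 8 libraries, squares leave out WT 2, triangles leave out WT 1 and diamonds add an offset for transcript length; every median lies below 0, and the Drosha KO complex IV median without WT 2 comes closest to it.

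Uqcrq was the only member called in every knockout. It encodes a small accessory subunit of complex III (chr11:53427922-53430831, minus strand, GRCm38). It measured 24.5 and 18.7 CPM in Dgcr8 KO, 27.3 and 33.5 CPM in Drosha KO and 25.4 and 36.9 CPM in Ago1_2 KO, against 60.8 and 113 CPM in WT. All 6 KO libraries lay well under both WT libraries. Its log2 fold change was -2.01 ± 0.33 in Dgcr8 KO (SE; adjusted p = 0.0117), -1.52 ± 0.32 in Drosha KO (adjusted p = 0.0183) and -1.48 ± 0.32 in Ago1_2 KO (adjusted p = 0.0154). Without WT 2 it was -1.49, -0.98 and -0.95, and the call remained in Dgcr8 KO (adjusted p = 0.0329) but not in Drosha KO (adjusted p = 0.0732) or Ago1_2 KO (adjusted p = 0.0666). With the length offset all 3 calls held, at adjusted p = 0.00761, 0.0165 and 0.0206.

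In Dgcr8 KO cells 6 of 36 complex I subunits fell. Among the 7 core subunits, which carry the electron path, Ndufv2 and Ndufs7 fell. Ndufv2, an iron-sulfur protein of the NADH-binding arm (chr17:66078638-66101559, minus strand), measured 63.7 and 71.7 CPM in Dgcr8 KO, against 149 and 227 CPM in WT (-1.48 ± 0.23, adjusted p = 0.0096). Its Dgcr8 KO libraries were the lowest of all 8. It was still called without WT 2 (-1.13, adjusted p = 0.0178). Ndufs7, which carries the last iron-sulfur cluster before ubiquinone (chr10:80249121-80256794, plus strand), had 12.4 and 14.5 CPM in Dgcr8 KO, against 24.4 and 56.5 CPM in WT (-1.59 ± 0.36, adjusted p = 0.032). The call was lost without WT 2 (-0.85, adjusted p = 0.0961). The accessory subunits Ndufb7 (-1.48), Ndufa2 (-1.45), Ndufa13 (-1.39; also known as GRIM19) and Ndufa7 (-1.21) fell as well. None of these 4 was called without WT 2.

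Dgcr8 KO cells also had less of several complex III and IV mRNAs. Cyc1, the cytochrome c1 of complex III, had 120 and 115 CPM in Dgcr8 KO, against 177 and 363 CPM in WT (-1.20 ± 0.29, adjusted p = 0.0408). The accessory subunits Uqcr11 (-1.47) of complex III and Cox6c (-1.21) of complex IV fell too, and none of these 3 was called without WT 2. Cox7a2l, a relative of Cox7a2 known to join complexes III and IV in supercomplexes, had 58.3 and 60.7 CPM in Dgcr8 KO, against 128 and 248 CPM in WT (-1.66 ± 0.31, adjusted p = 0.0187), and held without WT 2 (-1.10, adjusted p = 0.0484). It made up 34.4% and 36.4% of the summed CPM of Cox7a2l and Cox7a2 in Dgcr8 KO, 43.2% and 50.9% for Drosha KO, 51.4% and 54.0% for Ago1_2 KO, against 49.8% and 49.8% in WT. That share was lower in Dgcr8 KO than in every other library, and the WT libraries did not differ in it.
Ndufaf7, a methyltransferase that acts on a complex I core subunit during assembly, had 13.4 and 14.8 CPM in Dgcr8 KO, against 32.7 and 38.0 CPM in WT (-1.33 ± 0.25, adjusted p = 0.0197). Its adjusted p without WT 2 was 0.0624. In complex V, Atp5g1, one of 3 genes for the c-ring subunit, fell (-0.96 ± 0.23, adjusted p = 0.0374), and Atp5g2 and Atp5g3, which encode the same mature protein, had values of -1.14 and -0.35 without a call. Fold changes in Dgcr8 KO also moved with transcript GC content. Spearman's rho was -0.54 across tested members and -0.46 across all genes tested, which are not independent replicates. With a GC offset 8 of the 14 calls held, and those of Ndufs7, Ndufa2, Ndufa7, Cyc1, Uqcr11 and Cox6c were lost. The part of base composition was not tested further. No member was called in Dgcr8 KO against WT once either Dgcr8 KO library was left out, where the lone library is assumed to vary like the other groups.

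In Drosha KO cells the 9 called members were few per complex. Cox7b, an X-linked accessory subunit of complex IV (chrX:106015700-106022450, plus strand), had 104 and 148 CPM in Drosha KO, against 206 and 331 CPM in WT (-1.09 ± 0.26, adjusted p = 0.028). Uqcrh, the hinge protein beside cytochrome c1 whose promoter is shown above, had 85.0 and 112 CPM, against 147 and 210 CPM in WT (-0.85 ± 0.23, adjusted p = 0.045). The complex I accessory subunits Ndufb3 (-0.86) and Ndufa10 (-0.83) and the complex V membrane subunits Atp5mpl (-1.31) and Atp5k (-1.04) fell too. Atp5s (chr12:69724950-69744660, plus strand) had 1.30 and 2.83 CPM in Drosha KO, against 8.75 and 12.9 CPM in WT (-2.36 ± 0.41, adjusted p = 0.0088). Ndufa4l2, a paralog of Ndufa4 that is known as a target of hypoxia-inducible factors, was the lowest by fold, with 0.17 and 0.81 CPM in Drosha KO, against 4.51 and 10.01 CPM in WT (-3.79 ± 0.66, adjusted p = 0.00922). Ndufa4l2 overlaps Shmt2 exons on the opposite strand, and the use of strand in counting is not stated. Without WT 2 only Atp5s (-2.03, adjusted p = 0.0348) and Ndufa4l2 (-3.08, adjusted p = 0.0391) were called. Leaving out Drosha KO 1 left 2 calls and leaving out Drosha KO 2 gave 12. Uqcrq, Ndufa4l2 and Atp5s were the 3 calls left when a Dgcr8 KO or Ago1_2 KO library, which is not part of the comparison, was removed from the shared estimate of spread.

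In Ago1_2 KO cells 25 of the 76 subunits of complexes I to V fell, together with the assembly factors Ndufaf1, Ndufaf4 and Ndufaf6. By complex the counts were 13 of 36 in I, 1 of 4 in II, 4 of 9 in III, 2 of 11 in IV and 5 of 16 in V. After Uqcrq the lowest was Cox7b, with 93.4 and 100 CPM in Ago1_2 KO, against 206 and 331 CPM in WT (-1.47 ± 0.26, adjusted p = 0.0071). Its Ago1_2 KO libraries were the lowest of all 8. Atp5e, the epsilon subunit of the F1 head, had 37.5 and 27.8 CPM, against 45.2 and 132 CPM in WT (-1.44 ± 0.41, adjusted p = 0.0403), so this value turned on WT 2, and without it the log2 fold change was -0.44. Sdhd, a membrane anchor of complex II, had 89.9 and 84.1 CPM in Ago1_2 KO, against 149 and 208 CPM in WT (-1.04 ± 0.21, adjusted p = 0.0131).
Sdha, the flavoprotein of the same complex and its highest member per length, had 286 and 278 CPM in Ago1_2 KO, against 350 and 332 CPM in WT (-0.27 ± 0.17, not called). Further members that fell in Ago1_2 KO were Ndufa2 (-1.24), Ndufa7 (-1.16), Ndufb7 (-1.15), Ndufs5 (-1.05), Ndufb3 (-0.996) and Ndufb11 (-0.99) in complex I. In complex III Uqcr11 (-1.10) fell, in complex IV Cox7a2 (-1.14), and in complex V Atp5j2 (-1.19) and Atp5k (-1.09). Without WT 2 the calls were Ndufb3 (-0.996, adjusted p = 0.0336), Cox7b (-1.07, adjusted p = 0.0256), Sdhd (-0.75, adjusted p = 0.0402) and Atp5j2 (-0.67, adjusted p = 0.0446). The calls made with all 8 libraries were lost once either Ago1_2 KO library was left out, where the lone library is assumed to vary like the other groups. The members' median was -0.72 without Ago1_2 KO 1 and -0.79 without Ago1_2 KO 2.

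**Figure D5:**
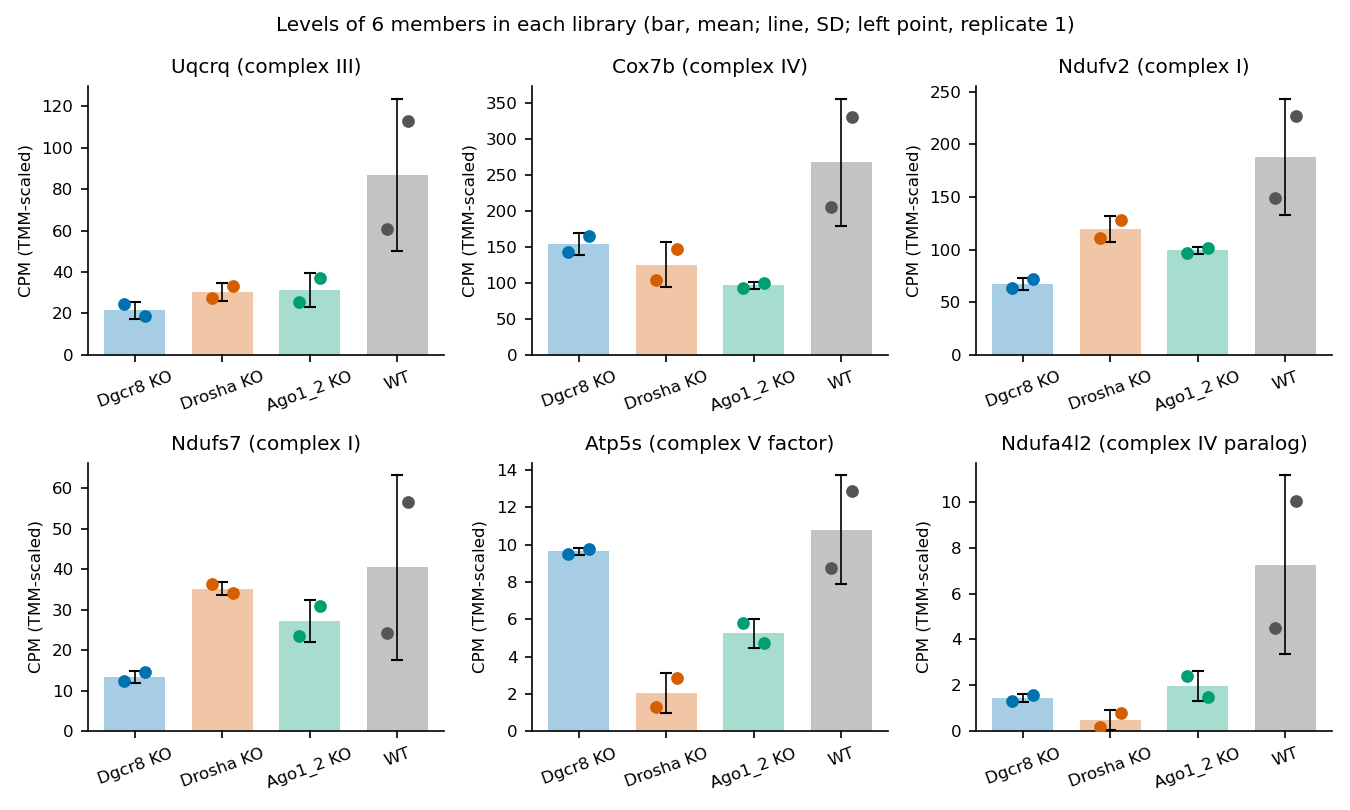
CPM (y axis) of 6 members in Dgcr8 KO, Drosha KO, Ago1_2 KO and WT cells (x axis); points are libraries with replicate 1 on the left, bars are means and lines are SD (n = 2). Uqcrq and Cox7b lie below both WT libraries in every KO library, Ndufv2 and Ndufs7 are lowest in Dgcr8 KO, and Atp5s and Ndufa4l2 are lowest in Drosha KO.

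Comparing the Microprocessor knockouts directly does not involve WT levels, although WT enters the shared estimate of spread. Between Drosha KO and Dgcr8 KO 3 members were higher and 2 lower (9.67% and 5.74% of all genes), and the members' median was 0.07. Without WT 2, which enters only the estimate of spread, the filter and the scaling, 15 of 91 were higher and 3 lower (13.9% and 8.73% of all genes). Atp5s had 1.30 and 2.83 CPM in Drosha KO, against 9.499 and 9.78 CPM in Dgcr8 KO (-2.20, adjusted p = 0.0086). Ndufaf4, an assembly factor of complex I with the NRF1 palindrome shown above, had 27.5 and 20.6 CPM in Drosha KO, against 47.3 and 47.8 CPM in Dgcr8 KO (-0.99, adjusted p = 0.0223). In both genes, as in the 3 higher members below, the libraries of the knockouts did not overlap. These members were picked by this same contrast, so the separation adds no support to the calls. In the other direction, Ndufs7 had 36.4 and 34.1 CPM in Drosha KO, against 12.4 and 14.5 CPM in Dgcr8 KO (1.39, adjusted p = 0.0292). Ndufv2 had 111 and 128 CPM in Drosha KO, against 63.7 and 71.7 CPM in Dgcr8 KO (0.82, adjusted p = 0.0368), and Ndufaf7 had 21.4 and 31.4 CPM, against 13.4 and 14.8 CPM (0.91, adjusted p = 0.039). Over the 8 fits that leave out 1 library these fold changes ranged from -2.87 to -1.76 for Atp5s, from -1.20 to -0.78 for Ndufaf4, from 1.27 to 1.51 for Ndufs7, from 0.72 to 0.93 for Ndufv2 and from 0.62 to 1.16 for Ndufaf7. The call was lost in 2, 3, 4, 6 and 5 of these fits. Base composition moved with this contrast: across genes, Spearman's rho of a library's deviation with transcript GC content was 0.04 and 0.34 in Drosha KO, against -0.49 and -0.43 in Dgcr8 KO. With a GC offset 3 members were called, and Ndufs7 and Ndufaf4 were not among them (0.78 and -0.57).

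No single member was called between Ago1_2 KO and the mean of the Drosha and Dgcr8 knockouts. By edgeR 0 members were called in either direction (5.33% of all genes higher and 1.07% lower), and DESeq2 called 0. The lowest p belonged to Sdhd (-0.60, adjusted p = 0.101). Over the 4 genotypes together 25 of 90 members differed (24.8% of all genes), a share near that of all genes, and without WT 2 this held for 19 of 91 (24.6% of all genes). The smallest adjusted p belonged to Uqcrq (0.00613), Ndufv2 (0.0078), Ndufa4l2 (0.01), Atp5s (0.0109) and Cox7b (0.0122).

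Of the member with the highest level per transcript length in each complex, only Ndufa7 was called, with the falls in Dgcr8 KO and Ago1_2 KO given above. Mean levels over the 8 libraries were 1108 CPM per kb for Atp5b, the catalytic beta subunit of complex V, 391 for Cox4i1 of complex IV, 297 for Uqcrb of complex III, 218 for Ndufa7 of complex I and 108 for Sdha. Atp5b had 1832 and 1799.7 CPM in Dgcr8 KO, 2200.4 and 2335 CPM in Drosha KO and 2052 and 1982 CPM in Ago1_2 KO, against 1961 and 2827 CPM in WT. Its Drosha KO and Ago1_2 KO libraries all exceeded WT 1, and its log2 fold changes were -0.40, -0.08 and -0.25, or -0.11, 0.23 and 0.06 without WT 2. Its partner in the F1 head, Atp5a1, was not called either, with -0.36, 0.06 and -0.08, or -0.20, 0.24 and 0.10 without WT 2. Cox4i1 had 214 and 211 CPM in Dgcr8 KO, 337 and 314 CPM in Drosha KO and 267 and 283 CPM in Ago1_2 KO, against 244 and 489 CPM in WT, and was not called. Without WT 2 its log2 fold changes were -0.19, 0.44 and 0.19. Uqcrb had values of -0.36, -0.33 and -0.53, or -0.16, -0.12 and -0.31 without WT 2, and none was called.

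Among the tissue isoforms of complex IV, only Cox6a2 was called. The paralogs Cox7a2l and Ndufa4l2 were called in Dgcr8 KO and in Drosha KO, as given above. Cox6a2, the heart and muscle isoform, had 0.48 and 0.06 CPM in Dgcr8 KO, 1.08 and 0.47 CPM in Drosha KO and 0.44 and 0.90 CPM in Ago1_2 KO, against 2.14 and 4.01 CPM in WT, and fell in Dgcr8 KO (-3.43 ± 0.78, adjusted p = 0.0328). It overlaps Itgad on the opposite strand, and without WT 2 the call was lost (-2.89, adjusted p = 0.13). Cox7a1, another heart and muscle isoform, had 9.55 and 8.70 CPM in Dgcr8 KO, 7.60 and 13.4 CPM in Drosha KO and 12.1 and 15.9 CPM in Ago1_2 KO, against 8.13 and 23.3 CPM in WT, with no call. Without WT 2 its log2 fold changes were 0.17, 0.39 and 0.80. Cox6b2, known as the testis isoform, had 64.3 and 66.8 CPM in Dgcr8 KO, 50.1 and 63.9 CPM in Drosha KO and 62.0 and 58.9 CPM in Ago1_2 KO, against 76.0 and 160 CPM in WT, with no call and values of -0.21, -0.39 and -0.31 without WT 2. Of the summed CPM of Cox6b1 and Cox6b2, Cox6b2 took between 18.8% and 30.7% in all libraries, with overlap between KO and WT.

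Subunits encoded by mitochondrial DNA did not share the rise in WT 2. The 13 genes summed to 29742 to 42322 CPM in Dgcr8 KO, 40064 to 54544 CPM in Drosha KO and 37449 to 51308 CPM in Ago1_2 KO, against 52116 CPM in WT 1 and 35392 CPM in WT 2. Their median log2 fold changes were -0.34, 0.10 and 0.00, and each turned on the WT library used. Without WT 2 the medians were -0.55, -0.19 and -0.18. Without WT 1 they were 0.17, 0.47 and 0.39. mt-Co3, a core subunit of complex IV, fell in Dgcr8 KO, with 898 and 1171 CPM against 2189 and 2435 CPM in WT (-1.16, adjusted p = 0.0419), and no other of the 13 was called in any knockout with all libraries. Without WT 2 the call of mt-Co3 was lost and mt-Nd5, a complex I subunit, was called lower in Dgcr8 KO. Neither of the 2 cytochrome c genes tested was called against WT. Cycs had 104 and 121 CPM in Dgcr8 KO, 83.3 and 77.5 CPM in Drosha KO and 80.8 and 90.3 CPM in Ago1_2 KO, against 98.1 and 119 CPM in WT. Between Drosha KO and Dgcr8 KO, 1 of these 2 genes was called lower (5.74% of all genes).

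Assembly factors outside the rule also had medians below 0 in every knockout. Of 48 tested, 1 fell in Dgcr8 KO, 7 fell in Drosha KO, 11 fell in Ago1_2 KO and 0 rose, with medians of -0.27, -0.44 and -0.65. The lower calls are 2.08%, 14.6% and 22.9% of the list, compared with 4.48%, 4.83% and 7.38% of all genes. Cox18, which inserts a complex IV subunit into the membrane, had 14.99 and 15.2 CPM in Dgcr8 KO and 7.55 and 10.3 CPM in Drosha KO, against 25.2 and 34.4 CPM in WT (-0.98, adjusted p = 0.0488, and -1.73, adjusted p = 0.00515). Lyrm7, a complex III assembly factor, fell in Drosha KO (-3.04) and Ago1_2 KO (-1.94). Cox20 (-1.68 and -1.26) and Sdhaf4 (-1.71 and -1.32), which serve complexes IV and II, did likewise. Without WT 2 the count was 0 in Dgcr8 KO, 4 lower and 1 higher in Drosha KO and 1 lower in Ago1_2 KO, with medians of -0.07, -0.14 and -0.23, while 2.19%, 3.01% and 3.57% of all genes were called lower.

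Few regulators of respiratory genes were called. Of 26 tested, 0 were called in Dgcr8 KO, 1 rose in Drosha KO, and 1 rose and 2 fell in Ago1_2 KO. The 2 lower calls for Ago1_2 KO are 7.69% of the list, near the 7.38% of all genes. A single higher call is 3.85%, under the 6.54% of all genes for Drosha KO and the 10.2% for Ago1_2 KO. The Microprocessor knockouts had no lower call, where 4.48% (Dgcr8) and 4.83% (Drosha) of all genes were lower. Medians of the list were 0.06, -0.17 and 0.01, or 0.09, -0.05 and -0.04 without WT 2. Ssbp1, which binds single-stranded mitochondrial DNA, had 47.1 and 43.6 CPM in Ago1_2 KO, against 80.9 and 105 CPM in WT (-1.03, adjusted p = 0.0104), and was called without WT 2 as well. Mgme1, a mitochondrial exonuclease, fell in Ago1_2 KO (-0.70), and Hcfc1, a transcriptional co-regulator, rose in Drosha KO (1.15) and Ago1_2 KO (1.01). Neither was called without WT 2. Enzymes of pyruvate entry and the citric acid cycle had 1 lower call of 21 in each knockout, a share of 4.76% against the same background, with medians of -0.30, -0.05 and -0.24, or -0.20, 0.07 and -0.02 without WT 2. Idh2 fell in Dgcr8 KO (-1.06, adjusted p = 0.026), and Fh1, the fumarase, fell in Drosha KO (-0.66, adjusted p = 0.0438) and Ago1_2 KO (-0.80, adjusted p = 0.0184). Of these, only the Ago1_2 KO call of Fh1 remained without WT 2.

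Targets of hypoxia-inducible factors, the list to which Ndufa4l2 belongs by function, had calls in both directions. Of 18 tested, 5 fell and 1 rose in Dgcr8 KO, 0 fell and 2 rose in Drosha KO, and 1 fell and 4 rose in Ago1_2 KO, with medians of -0.69, -0.08 and -0.05. As shares of the list these are 27.8% lower and 5.56% higher in Dgcr8 KO (4.48% and 2.45% of all genes), 0% and 11.1% in Drosha KO (4.83% and 6.54%) and 5.56% and 22.2% in Ago1_2 KO (7.38% and 10.2%). The list is small, so that 1 gene is 5.56% of it. Without WT 2 the medians were -0.56, -0.03 and 0.10. Ndrg1, a stress-induced gene, had 10.1 and 12.3 CPM in Dgcr8 KO, 89.3 and 77.3 CPM in Drosha KO and 130 and 124 CPM in Ago1_2 KO, against 20.3 and 41.1 CPM in WT. It fell in Dgcr8 KO (-1.46, adjusted p = 0.0266) and rose in Drosha KO (1.44, adjusted p = 0.0174) and Ago1_2 KO (2.05, adjusted p = 0.00326). Kdm3a, a histone demethylase, rose in all 3 (1.27, 1.15 and 1.13). P4ha1, a collagen prolyl hydroxylase, rose in Ago1_2 KO (1.15, adjusted p = 0.00472), and Bnip3, a mitophagy receptor, fell in Dgcr8 KO (-1.34, adjusted p = 0.0194). Without WT 2 the calls were 2 lower and 1 higher in Dgcr8 KO, 1 lower and 2 higher in Drosha KO and 0 lower and 4 higher in Ago1_2 KO, and the Dgcr8 KO calls of Ndrg1 and Bnip3 were lost. Ndufa4l2 took 0.79% and 0.94% of the summed CPM of Ndufa4 and Ndufa4l2 in Dgcr8 KO, 0.11% and 0.55% for Drosha KO, 1.80% and 1.25% for Ago1_2 KO, against 2.91% and 3.41% in WT, so that its share was lower in all 6 KO libraries than in either WT library.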

How the data were processed

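The authors deposited 1 table of raw counts per gene for 8 libraries, 2 for each of 4 genotypes; per the labels' protocols libraries were made with a reverse-stranded Illumina TruSeq kit. The submitters' processing notes name STAR 2.4.2a, mm10 and GRCm38. No source used here names the counting tool, its annotation or its use of strand, and 5 members overlap an exon of another gene on the same strand and 29 on the opposite strand. Symbols, biotypes and transcript lengths came from the GENCODE mouse annotation (47224 of 47643 gene IDs matched). Genes were filtered by genotype and tested with edgeR 4.0.16 (TMM scaling, quasi-likelihood test, 1 mean per genotype over all 8 libraries, R 4.3.3). Benjamini-Hochberg adjustment ran over all 16388 genes tested, and a gene was called below an adjusted p of 0.05. CPM are TMM-scaled. Alternatives used DESeq2 1.42.0, limma 3.58.1, other scalings and filters, GC and length offsets, a replicate block, and each library left out. Scripts were tested on simulated data. Members, gene lists and motifs were chosen with earlier results of these data known. Named are called members, up to 15 per direction for a knockout against WT and 5 between knockouts, the highest member per length of each complex, isoforms, and up to 4 genes of each other list. Replicates of a genotype differed by more than counting noise. Total counts of 13229771 to 26333907 per library limit precision most for members under 1 CPM.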

Additional observations from a re-analysis of the deposited data

How the results depend on the processing

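No member was called higher than WT in any fit. Complex medians were taken for the other scalings, the GC and length offsets and each library left out, and none changed sign. Of the called members named under the rule above, none changed sign. Medians of other lists did: the mitochondrially encoded genes had -0.34 in Dgcr8 KO with all libraries and 0.17 without WT 1, and 0.10 in Drosha KO with all libraries and -0.19 without WT 2. The median of hypoxia-inducible factor targets in Ago1_2 KO was -0.05 with all libraries and 0.10 without WT 2. Counts of members called lower against WT in Dgcr8 KO, Drosha KO and Ago1_2 KO were 14, 9 and 28 with all libraries. DESeq2 gave 29, 17 and 43, and no filter on low counts gave 44, 32 and 53. Fitting only the groups compared gave 6, 3 and 5. In Dgcr8 KO limma-voom gave 9 and the GC offset 9, and in Ago1_2 KO the length offset gave 13. The replicate numbers pair nothing in the labels, and the replicate block gave 35 in Dgcr8 KO and 19 in Drosha KO, 11 between Drosha KO and Dgcr8 KO and 45 over the 4 genotypes. Correlations of replicate differences between genotypes ran between 0.096 and 0.245. Drosha KO against Dgcr8 KO gave 17 without a filter, 3 with the GC offset, 17 with the length offset and 9 with only these groups. Ago1_2 KO against the Microprocessor knockouts gave 1 with the length offset and 2 with only these groups. Over the 4 genotypes DESeq2 gave 42 and no filter 63. The counts between knockouts and over the 4 genotypes, and the leave-one-out ranges below, stand here without the share of all genes. They show how far the calls moved and are not a result about the members. In the main fit of Drosha KO against Dgcr8 KO, 3 of 90 members were higher and 2 lower, against 9.67% and 5.74% of all genes. Calls over all genes, in either direction, moved as well. In Dgcr8 KO, Drosha KO and Ago1_2 KO they were 1136, 1862 and 2887 with all libraries and 2282, 2674 and 3569 by DESeq2. No filter gave 3241, 3413 and 4431 such genes, and only the groups compared 723, 589 and 2045. The block gave 2795 and 2884 in Dgcr8 KO and Drosha KO. In Dgcr8 KO limma-voom gave 901 and the GC offset 727 of all genes. Leaving out 1 library at a time gave 0 to 69 members in Dgcr8 KO, 2 to 63 in Drosha KO and 0 to 72 in Ago1_2 KO, 0 to 18 between Drosha KO and Dgcr8 KO, 0 to 1 between Ago1_2 KO and the Microprocessor knockouts and 5 to 74 over the 4 genotypes. In Dgcr8 KO the complex medians then ranged from -1.01 to -0.29 for complex I, -0.77 to -0.22 for complex II, -1.05 to -0.42 for complex III, -1.03 to -0.29 for complex IV and -0.88 to -0.14 for complex V. With the length offset they were -0.30 for I, -0.29 for II, -0.49 for III, -0.32 for IV and -0.22 for V. In Drosha KO the complex medians then ranged from -0.83 to -0.11 for complex I, -0.71 to -0.14 for complex II, -0.85 to -0.077 for complex III, -0.79 to -0.0027 for complex IV and -0.81 to -0.0765 for complex V. With the length offset they were -0.19 for I, -0.15 for II, -0.15 for III, -0.069 for IV and -0.13 for V. In Ago1_2 KO the complex medians then ranged from -1.01 to -0.29 for complex I, -0.93 to -0.33 for complex II, -1.01 to -0.31 for complex III, -0.88 to -0.21 for complex IV and -0.99 to -0.32 for complex V. With the length offset they were -0.31 for I, -0.47 for II, -0.18 for III, -0.019 for IV and -0.25 for V. Of 1494 refits of named members, 1171 kept their call or lack of one, 239 lost it and 84 gained it. The causes of these differences were not tested beyond what each alternative changes. Members under 1 CPM, such as Ndufa4l2 and Cox6a2 in some knockout libraries, rest on few reads.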
